A study of Sus scrofa with 9 samples.

Results

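Testis RNA of a boar carrying a balanced reciprocal translocation between chromosomes 1 and 14, t(1;14), was compared with control testis on 6 of the 9 arrays of the series. The arrays were taken by their titles, 3 for t(1;14) and 3 for control. The t(1;14) boar, a Landrace × Duroc crossbred, was oligo-astheno-teratospermic, with few, poorly motile and malformed sperm, and its 3 arrays hold separate extractions of this animal. The control arrays hold testis of fertile boars with a normal XY karyotype and normal semen, given as 3 boars in the methods and as a pool in the results of the study. The remaining 3 arrays, from a boar labelled oligospermic with a normal XY karyotype, are given only beside the results. All RNA was total RNA of testicular biopsies, labelled with cyanine 3 and hybridized to a custom porcine Agilent array, and ages are not given in the sources used here. With a single t(1;14) animal, an effect of the translocation and other differences between animals, breed included, cannot be told apart. The p-values therefore measure the spread between these arrays, which may be technical.

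In the testis, germ cells divide and differentiate inside the seminiferous tubules with the help of Sertoli cells, passing from spermatogonia through meiotic spermatocytes to haploid spermatids. Spermatids build the acrosome, the vesicle of enzymes and membrane proteins used to reach and enter the egg, and the flagellum, with its central axoneme and its outer dense fibres. Leydig cells, between the tubules, answer luteinizing hormone by moving cholesterol into mitochondria and turning it into steroids, and the boar testis is known for making large amounts of androgens, oestrogens and their sulfates.

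Each value below is the log2 signal of 1 probe of 60 bases after quantile normalization of the 6 arrays, so levels of different probes are not compared. Retained probes, 40643 of 60889, had signals well above background on 2 or more arrays of either group. Between 37087 and 40632 probes were well above background on each of the 9 arrays and between 52 and 275 were saturated, and each of the 3 slides held 1 array of every group. A probe was called higher or lower in t(1;14) at a limma adjusted p of at most 0.01 and a difference of at least 4-fold (2 on the log2 scale), and 2-fold calls used the same adjusted p with a difference of at least 1. By these rules 2247 probes were called (5.53%), 524 higher (1.29%) and 1723 lower (4.24%). Of 7256 genes with a symbol on the array, 6348 had a retained probe, and each was represented by its brightest one. Among them 412 genes were called (6.49%), 90 higher (1.42%) and 322 lower (5.07%). For 49 of the 412 a group was at background on all its arrays, and the lower limit of the difference was under 4-fold for 32 of these. At an unadjusted p under 0.05, 2156 genes were higher (34%) and 1720 lower (27.1%), and counts of list members at that p are to be read against these shares. At the 2-fold level 7681 probes differed (18.9%), 2960 higher (7.28%) and 4721 lower (11.6%), and 1317 genes (20.7%), 470 higher (7.4%) and 847 lower (13.3%). Genes named outside the rule given with the processing were chosen afterwards, that is, after their values were seen, and most of them are marked so. The median log2 difference of all genes was 0.12, and control and t(1;14) arrays were without overlap for 65.2% of all genes, 36.7% on the higher and 28.6% on the lower side. In whole biopsies, fewer cells of a type and less RNA per cell cannot be told apart.

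The lists with the most called lower genes were those of the acrosome, flagellum, complement and spermatids, and those with the most called higher genes were antioxidant enzymes, Leydig cells, lysosomes and cholesterol supply. Probe sequences behind the values that the next paragraphs turn on are shown as the array's own probe column holds them, running 5′ to 3′. ODF1, an outer dense fibre protein of the sperm tail, and TSSK2, a kinase of spermatids, stand for the lower genes, STAR, the carrier of cholesterol into mitochondria, for the higher ones, and C3 for the called genes of the complement and coagulation list. The last pair, from the aromatase paralogs CYP19A2 and CYP19A3, overlaps by 48 bases, of which 44 match, and capitals mark the 4 bases at which each differs from the other.
ODF1: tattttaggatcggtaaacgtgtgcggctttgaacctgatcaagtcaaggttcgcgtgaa
TSSK2: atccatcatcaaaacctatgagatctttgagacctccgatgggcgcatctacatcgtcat
STAR: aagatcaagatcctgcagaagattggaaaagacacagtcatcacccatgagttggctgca
C3: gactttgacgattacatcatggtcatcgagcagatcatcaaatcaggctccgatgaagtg
CYP19A2: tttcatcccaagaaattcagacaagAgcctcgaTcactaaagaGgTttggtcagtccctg
CYP19A3: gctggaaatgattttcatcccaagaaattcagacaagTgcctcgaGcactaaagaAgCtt

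Genes of late sperm formation were lower in t(1;14). Of 13 spermatid genes, 4 were called lower and none higher by limma at 4-fold (12 were lower at an unadjusted p under 0.05), and 10 were lower at 2-fold. The list median was -1.54, against 0.12 for all genes. For 12 of the 13 genes every t(1;14) array lay below every control array. ODF1 had log2 signals of 13.95, 14.02 and 13.75 on control arrays 1 to 3 and of 11.36, 11.51 and 11.35 on t(1;14) arrays 1 to 3. The 3 t(1;14) arrays lay close together and well below all controls, a log2 difference of -2.50 (SE 0.12, limma adjusted p = 0.000127), or 5.66-fold lower. Its other sequence on the array, the one not shown, was called lower as well. For the TSSK2 sequence above, the controls were at 12.95, 12.94 and 12.77 and the t(1;14) arrays at 10.40, 10.32 and 10.34. The brightest TSSK2 probe differed by -2.39 (SE 0.16, limma adjusted p = 0.000169), without overlap. ACRV1, a protein of the acrosomal matrix, was lower by the same -2.39, and FSCN3, an actin-bundling protein of spermatids, by -2.24. AKAP4, the main anchor protein of the fibrous sheath of the tail, SMCP, of the sperm mitochondrial capsule, and CAPZA3, an actin-capping subunit of the sperm head, were chosen afterwards and reached -1.54, -1.46 and -1.67 at the 2-fold level. The protamine and transition protein genes, whose products replace histones in the sperm nucleus, were mostly too bright to read at their brightest probes. PRM1 was saturated on all 6 arrays, PRM2 on the 3 control arrays, and TNP2 on the 3 control arrays and 1 t(1;14) array. Over all their sequences PRM2 ranged from -0.89 to -0.33 (2 sequences) and TNP2 from -1.51 to -0.35 (5 sequences), and both are among the 12 genes without overlap.

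**Figure D1:**
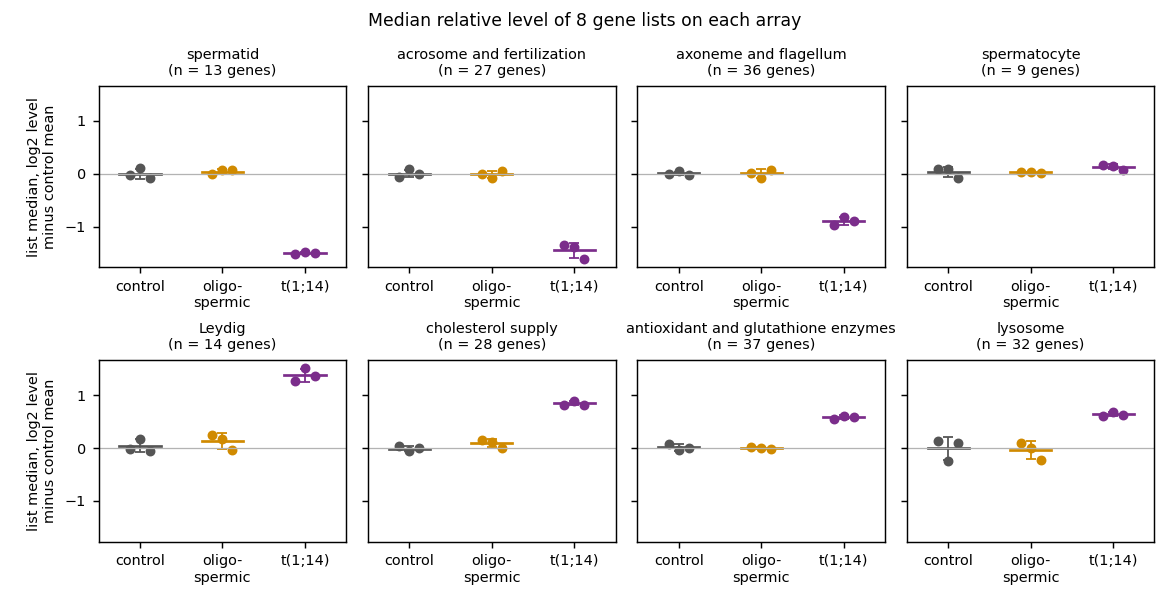
Median level of 8 gene lists on each of the 9 arrays, as log2 signal of each gene minus its mean over the 3 control arrays, with all 9 arrays normalized together. Points are arrays, horizontal bars group means and whiskers the SD (n = 3 arrays). The t(1;14) points of the spermatid list lie between -1.52 and -1.48 and those of the Leydig list between 1.27 and 1.51, while the control and oligospermic points of these lists lie between -0.07 and 0.25.

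Genes of the acrosome and of fertilization were lower as well. Of 27 tested genes, 9 were called lower and none higher (26 were lower at an unadjusted p under 0.05 in limma), 17 were lower at 2-fold, and the list median was -1.47. The groups did not overlap for 26 genes, all lower, and ADAM2 was the exception with a difference of 0.05. DCST2, a membrane protein needed for sperm and egg to fuse, had the largest difference. Its signals were 8.02, 8.18 and 8.10 in the controls and 4.32, 4.40 and 4.74 in t(1;14), which is -3.62 (SE 0.15, limma adjusted p = 0.000127). This dim probe lost its 4-fold call under normexp background correction with an offset of 50. ACTL7A, an actin-like protein under the acrosome, went from 14.74, 14.75 and 14.68 to 12.04, 12.31 and 12.10. ACTL7A and ACTL7B both differed by -2.58, with both sequences of each gene called, and ADAM29, of the family of sperm surface metalloprotease-like proteins, by -2.56. The other called genes of the list, chosen afterwards, were CCIN (-2.35), a protein of the calyx around the sperm nucleus, LYZL4 (-2.26) and LYZL1 (-2.04), lysozyme-like proteins, PLCZ1 (-2.20), the sperm phospholipase that starts calcium waves in the egg, and SPAM1 (-2.18), the sperm hyaluronidase. LYZL1 fell short of 4-fold without t(1;14) array 2 or without control array 2. ACR, the protease acrosin, had a smaller difference of -1.23 (limma adjusted p = 0.00039), and ZPBP2, a zona pellucida binding protein, had -0.31 (limma adjusted p = 0.0691), both chosen afterwards.

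Flagellar genes were also lower, with a list median nearer 0. Of 36 tested axoneme and flagellum genes 7 were called lower and none higher (31 were lower at an unadjusted p under 0.05 in limma), 16 were lower at 2-fold, and the median was -0.89 (-0.86 with 1 gene at its bound). In 33 of the 36 every t(1;14) array lay below every control array. ARMC4, which helps attach dynein arms to the axoneme, had signals of 10.32, 10.50 and 10.23 in the controls against 7.75, 7.26 and 7.74, a difference of -2.77 (SE 0.17, limma adjusted p = 0.000144). KLHL10, counted in this list although it is known as a partner of a ubiquitin ligase in spermatids, differed by -2.72. AKAP3, an anchor protein of the fibrous sheath, went from 9.69, 9.99 and 9.82 to 7.36, 7.28 and 7.06, that is by -2.60, and SPAG1, a dynein assembly factor, by -2.32. Subunits of CatSper, the calcium channel of the sperm tail that drives hyperactivated movement, were unequal. CATSPER1 (-2.42), CATSPER4 (-2.10) and CATSPER3 (-2.03) were called lower, whereas CATSPERB had -0.51 (limma adjusted p = 0.014) and CATSPER2 -0.08 (limma adjusted p = 0.707). The 2 sequences of CATSPER2 ranged from -0.95 to -0.08, and a difference between subunits was not tested. All of these but CATSPER1 were chosen afterwards. CATSPER3 lost its call without control array 3, and CATSPER3 and CATSPER4 lost theirs with the normexp offset. Beyond the lists, 3 of 14 spermatogenesis-associated (SPATA) genes were called lower and 10 were lower at 2-fold, with a family median of -1.51. These were SPATA9 (-2.86), SPATA25 (-2.45) and SPATA20 (-2.08), the last not past 4-fold without control array 1. Of 19 leucine-rich repeat (LRRC) genes 4 were called lower, LRRC52 (-2.81), an auxiliary subunit of a sperm potassium channel, LRRC8C (-2.42), LRRC18 (-2.36) and LRRC8B (-2.12). SUN5, which fixes the sperm head to its tail, differed by -2.83 with both sequences called, and SOX30, a transcription factor that turns on spermatid genes, by -2.29, both chosen afterwards.

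**Figure D2:**
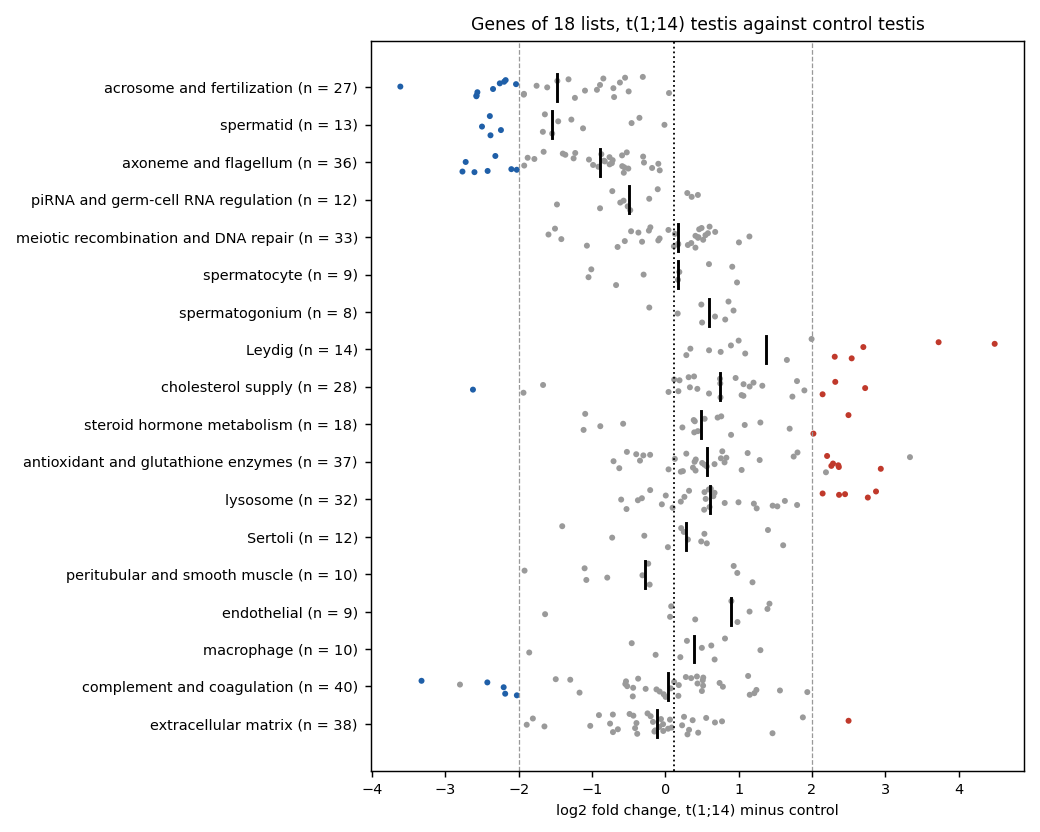
Log2 fold change, t(1;14) minus control, of every tested gene of 18 lists, 1 point per gene at its brightest probe. Red and blue points were called higher and lower at 4-fold (dashed lines) and grey points were not, short bars mark list medians and the dotted line the median of all genes, 0.12. All 7 called genes of the axoneme list and all 9 of the acrosome list lie on the left, and all 5 of the Leydig list on the right.

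Genes of earlier germ cells gave no 4-fold call. Of 33 genes of meiotic recombination and DNA repair none was called at 4-fold by limma, although 13 were higher and 7 lower at an unadjusted p under 0.05, and the median of 0.17 was near that of all genes. At 2-fold 4 were lower and 2 higher. RAD21, a cohesin subunit, TEX15, needed for repair of meiotic breaks, and MRE11A and BRCA1, of break processing, were lower by -1.59, -1.51, -1.42 and -1.07, and NBN, a partner of MRE11A, and HFM1, a meiotic helicase, were higher by 1.15 and 1.00, all chosen afterwards. Other sequences of TEX15 and MRE11A ranged up to 1.00 and 0.66. The 9 spermatocyte genes had a median of 0.17 and none called at 4-fold in limma, with 3 higher and 3 lower at an unadjusted p under 0.05. SPO11, the enzyme that makes meiotic breaks, was chosen afterwards and had -1.01 against control, but it also differed by -2.14 in the oligospermic arrays, and its other sequence had 0.77. SYCP3, a protein of the synaptonemal complex fixed as a marker, had no tested probe. The 8 tested spermatogonial genes had a median of 0.59, above that of all genes, and none was called even at 2-fold in limma, with 5 higher and none lower at an unadjusted p under 0.05. UCHL1, the deubiquitinating enzyme that marks pig spermatogonia, had signals of 11.52, 11.05 and 11.04 in the controls and of 12.05, 12.16 and 11.99 in t(1;14), a difference of 0.86 (SE 0.16, limma adjusted p = 0.0063) without overlap. Among 12 genes of the piRNA pathway and germ-cell RNA regulation, none was called at 4-fold by limma, 7 were lower and 1 higher at an unadjusted p under 0.05, and the median was -0.50. GTSF1, a partner of PIWI proteins, had the largest difference at -1.48, with another of its 5 sequences at 0.11.

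Leydig genes were higher in t(1;14). Of 14 tested genes 5 were called higher and none lower, with 12 higher at an unadjusted p under 0.05 in limma, 8 were higher at 2-fold, and the median was 1.37 against 0.12 for all genes. For 12 of the 14 every t(1;14) array lay above every control array. The sequence of STAR printed above had signals of 7.53, 8.13 and 7.30 in the controls and of 11.04, 11.21 and 11.38 in t(1;14), a difference of 3.56 (SE 0.23, limma adjusted p = 0.000155). Every t(1;14) array was above every control array, and all 8 STAR sequences on the array were called, with differences between 3.49 and 3.89. LHCGR, the luteinizing hormone receptor, went from 9.49, 9.62 and 9.41 to 11.96, 12.29 and 12.36, which is 2.70 (SE 0.15, limma adjusted p = 0.000127) or 6.5-fold. CYP11A1, which cuts the side chain of cholesterol and so makes the first steroid, was at 11.50, 11.72 and 11.65 in the controls and at 14.14, 14.21 and 14.16 in t(1;14). Its 3 t(1;14) arrays lay closer together than its controls, and the group difference was 2.54 (SE 0.11, limma adjusted p = 0.000127), with 5 of 6 sequences called. CYP17A1, the enzyme that turns progestagens into androgens, differed by 2.31 (SE 0.19, limma adjusted p = 0.000273) with all 3 sequences called. RLN2, the hormone relaxin, had the largest difference of the list, 4.49. INSL3, the other relaxin-like hormone of Leydig cells, was saturated on 2 of the 3 t(1;14) arrays at its brightest sequence, and its difference of 0.34 there gives no size (0.10 to 0.39 over the bright probes, each saturated on at least 2 arrays). Its other sequence was not saturated and went from 6.35, 7.09 and 6.20 to 8.35, 8.53 and 8.48, a difference of 1.91 (SE 0.24, limma adjusted p = 0.00142) that was under 4-fold. Members under the 4-fold call, chosen afterwards, were VCAM1, an adhesion molecule (2.00), CYB5A, the electron carrier that helps CYP17A1 make androgens (1.66), and NR5A1, the transcription factor of steroid-making cells (0.90).

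**Figure D3:**
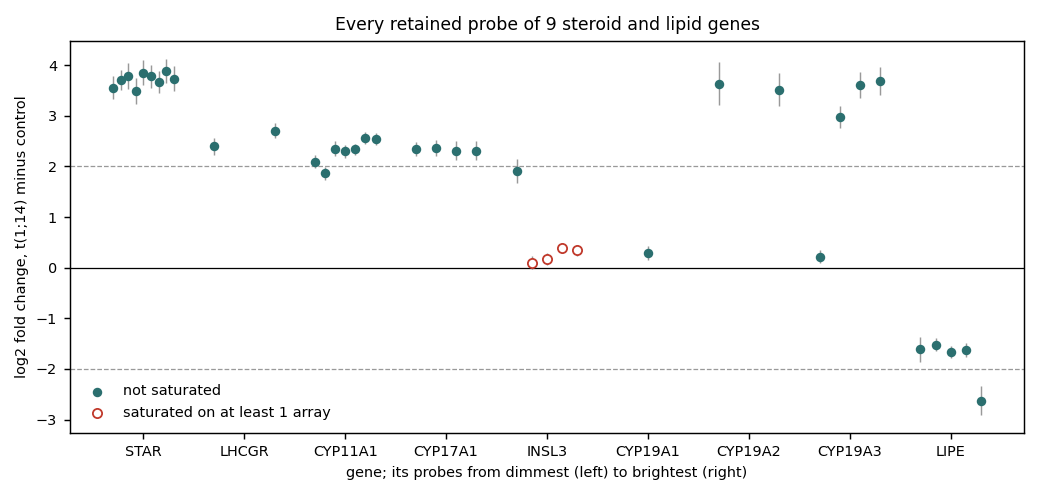
Log2 fold change with its standard error for every retained probe of 9 genes of steroid and lipid metabolism, probes of a gene running from dimmest to brightest. Open circles are probes saturated on at least 1 array. STAR probes lie between 3.49 and 3.89, the probe of CYP19A1 at 0.29 and the unsaturated INSL3 probe at 1.91. The CYP19A2 probes and all CYP19A3 probes but 1 lie between 2.98 and 3.68. The remaining CYP19A3 probe, the dimmest of that gene, lies at 0.22.

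The pig has several aromatase genes, whose enzymes turn androgens into oestrogens. The 3 paralogs on the array, a family chosen afterwards, gave unlike values. At the sequences printed above, CYP19A2 went from 6.10, 6.95 and 6.11 to 10.03, 9.41 and 10.26 and CYP19A3 from 7.46, 8.30 and 7.31 to 11.26, 11.34 and 11.52. The differences were 3.52 (SE 0.32, limma adjusted p = 0.000388) and 3.68 (SE 0.27, limma adjusted p = 0.000206), and every t(1;14) array lay above every control array. With 4 mismatches in the shared 48 bases the transcripts may bind to each other's probe, so the share of either gene is uncertain. A second CYP19A3 sequence, from the start of its transcript, differed by 2.98 (limma adjusted p = 0.000186), and a sequence from a cDNA clone by 0.22 (limma adjusted p = 0.169). The retained CYP19A1 probe, whose longest run shared with the CYP19A2 probe is 14 bases, was at 9.62, 9.76 and 9.86 in the controls and at 10.04, 9.84 and 10.21 in t(1;14), and its groups overlapped (0.29, limma adjusted p = 0.131).

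Genes of cholesterol supply were called in both directions. Of 28 genes 3 were called higher and 1 lower, with 17 higher and 3 lower at an unadjusted p under 0.05 in limma, 11 were higher and 3 lower at 2-fold, and the median was 0.75. MSMO1, an oxidase late in cholesterol synthesis, went from 8.51, 8.15 and 8.32 to 11.03, 10.93 and 11.20, a difference of 2.73 (SE 0.14, limma adjusted p = 0.000127) with all 4 sequences called. SCARB1, the receptor that takes up cholesterol from high-density lipoprotein, went from 12.68, 12.85 and 12.98 to 15.05, 15.21 and 15.21, a difference of 2.32, and its other sequences ranged down to 1.54. SOAT1, which stores cholesterol as esters, had 1.80. On the lower side, LIPE, the hormone-sensitive lipase that frees cholesterol from stored esters, went from 12.53, 13.59 and 13.16 to 10.64, 10.25 and 10.51, with 1 of 3 sequences called and differences of -2.62 to -1.52. NSDHL, of the step after MSMO1, had -1.67, with sequences ranging from -1.68 to 0.81. SOAT1 and NSDHL were chosen afterwards.

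Enzymes that modify and conjugate steroids gave 2 higher genes of 18 and none lower, with 8 higher and 3 lower at an unadjusted p under 0.05 in limma and a median of 0.49. SULT2A1, which attaches sulfate to steroids such as dehydroepiandrosterone, had signals of 12.38, 13.16 and 12.32 in the controls and of 15, 15.17 and 15.18 in t(1;14), a difference of 2.50 (SE 0.24, limma adjusted p = 0.000474), and its 3 sequences were all called. PAPSS2, which makes the sulfate donor for such enzymes and was chosen afterwards, went from 10.39, 10.41 and 9.96 to 13.19, 13.23 and 13.32, a difference of 2.99 with both sequences called. AKR1CL1, an aldo-keto reductase, differed by 2.02 and was saturated on 2 of 3 t(1;14) arrays. It lost its call without control array 1, without t(1;14) array 1 or 3, and in the model of all 9 arrays.

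Antioxidant and glutathione enzymes included several higher genes. Of 37 genes 6 were called higher and none lower, 11 were higher at 2-fold and none lower, and the median was 0.57, although 6 were lower at an unadjusted p under 0.05 in limma. GPX3, the secreted glutathione peroxidase, went from 10.18, 9.33 and 9.72 to 12.48, 13 and 12.56, a difference of 2.94 (SE 0.25, limma adjusted p = 0.000328). GSR, which returns glutathione to its reduced form, had 8.81, 8.89 and 8.65 in the controls against 11.05, 11.14 and 11.25, a difference of 2.37. Glutathione transferases, which couple glutathione to reactive compounds and in the alpha class also isomerize steroids, had 3 of 9 genes called. These were GSTA2 (2.36, all 4 sequences called), GSTO1 (2.29) and GSTA1 (2.27), and in all 9 genes every t(1;14) array lay above every control array. GSTA1 had 1 of 3 sequences called, with a range from 0.11 to 2.27, and was not called without control array 2. PRDX3, the mitochondrial peroxiredoxin, differed by 2.21 with 8 of 15 sequences called and was chosen afterwards. NQO1, a quinone reductase also chosen afterwards, had 12.20, 12.79 and 9.78 in the controls and 14.78, 14.99 and 15 in t(1;14). Its control array 3 was far below the others, the difference of 3.34 had an SE of 0.74, and the limma adjusted p of 0.0112 missed the threshold, which it passed without control array 2 or 3.

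The lysosome list likewise gave higher calls alone, while of 79 probes described as lysosomal or as cathepsins 9 were called higher and 1 lower. Of the 32 genes in the list 5 were called higher and none lower, with 21 higher and 1 lower at an unadjusted p under 0.05 in limma, 11 were higher at 2-fold, and the median was 0.61. NEU1, a sialidase, went from 6.17, 6.68 and 7.17 to 9.58, 9.38 and 9.68, a difference of 2.87 (SE 0.26, limma adjusted p = 0.000386). GUSB, the glucuronidase of the lysosome, went from 9.93, 9.35 and 10.33 to 12.58, 12.68 and 12.64, a difference of 2.76 with both sequences called. The t(1;14) arrays lay close together in both genes, and the controls spread more widely. LGMN, a cysteine protease, was called in 10 of 13 sequences (2.45), LAMP2, a protein of the lysosomal membrane, in 5 of 6 (2.37), and LIPA, the acid lipase that frees cholesterol from lipoproteins, in 3 of 4 (2.15). CTSD and CTSB, abundant lysosomal proteases chosen afterwards with LIPA, had 1.80 and 1.46.

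**Figure D4:**
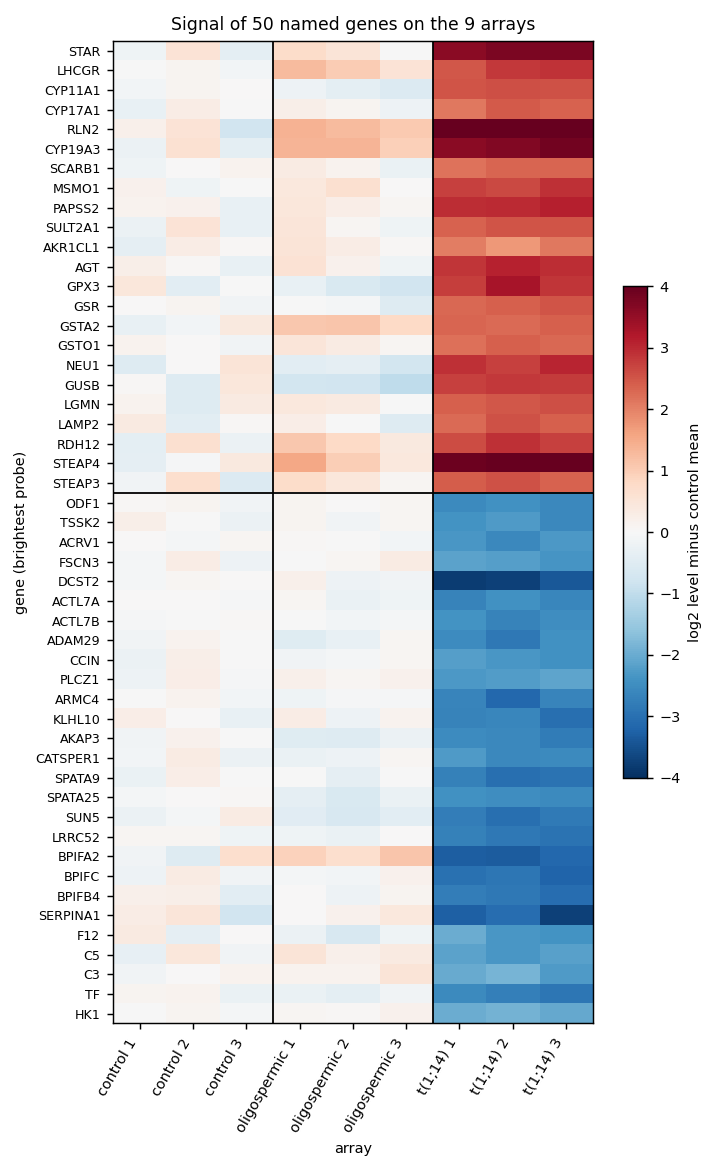
Log2 signal of 50 named genes at their brightest probe on the 9 arrays, as the difference from the mean of the 3 control arrays with all 9 arrays normalized together; rows are genes, columns arrays, and the colour scale ends at 4 above and below 0. Genes above the horizontal line were higher and those below it lower in t(1;14), and the oligospermic columns of most genes lie near the control columns, with STEAP4, CYP19A3 and RLN2 higher by 0.97, 1.23 and 1.24.

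Of 19 genes of retinoid metabolism 2 were called higher and none lower, with 7 higher and 4 lower at an unadjusted p under 0.05 in limma and a median of -0.05. Of 4 retinol dehydrogenases, a family chosen afterwards, 3 were called higher. RDH12 (2.74), RDH16 (2.46) and RDH11 (2.08), short-chain reductases that act on retinol, retinal and, in part, on steroids, were higher, the last not past 4-fold with scaling to the 75th percentile, and RDH10 had 0.81 (limma adjusted p = 0.0117), with another sequence at -1.07. RDH12 went from 10.66, 11.68 and 10.83 to 13.64, 13.95 and 13.79, and 2 of its 3 sequences were called. LRAT, which stores retinol as esters, and RXRG, a retinoid receptor, had -1.51 and -1.66, chosen afterwards, and RXRG sequences ranged up to 0.59. Iron and copper genes were split, 2 of 21 being higher and 2 lower. STEAP4 and STEAP3, metalloreductases, were higher, STEAP4 from signals that were background on all control arrays (2.42, 2.77 and 3.20) to 6.71, 6.99 and 7.08, at least 10.2-fold, and STEAP3 by 2.42, and both lost the call with the normexp offset. TF, the iron carrier transferrin, went from 9.94, 9.97 and 9.57 to 7.32, 7.12 and 6.96, a difference of -2.69, with 1 of 3 sequences called and another at 0.98. ATP7B, a copper pump, had -2.20, above background on 1 t(1;14) array, and lost its call without control array 2 or with that offset. In sugar metabolism, HK1, the hexokinase that opens glycolysis, was lower by -2.04 (15.53, 15.64 and 15.46 against 13.51, 13.58 and 13.44) in all 3 sequences, and fell short of 4-fold without t(1;14) array 3 or in the model of all 9 arrays. FBP1, which works in the opposite direction, was higher by 3.02 (7.01, 5.71 and 5.97 against 9.26, 9.34 and 9.15) in all 3 sequences. No other gene of the 32 in that list was called, and its median was -0.21.

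Secreted proteins of blood plasma and epithelial fluids included several lower genes. Of 40 complement and coagulation genes 5 were called lower and none higher, with 10 higher and 13 lower at an unadjusted p under 0.05 in limma. At 2-fold 5 were higher and 6 lower. The list median was 0.04. SERPINA1, the main elastase inhibitor of plasma, had 8.90, 9.06 and 7.82 in the controls and 5.35, 5.57 and 4.89 in t(1;14), a difference of -3.33 (SE 0.36, limma adjusted p = 0.000759), and all 3 sequences were called. C3, the central complement protein, went at the sequence printed above from 9.27, 9.41 and 9.53 to 7.41, 7.56 and 7.17, a difference of -2.03 (SE 0.15, limma adjusted p = 0.000191), with 4 of 5 sequences called. This value, close to the threshold, did not pass without control array 3, without t(1;14) array 3 or with the normexp offset. F12, the contact factor, and C5, the next complement protein, had -2.21 and -2.19, C5 losing its call without control array 2. C5, PLG and BPIFB4, below, also lost theirs with that offset. PLG, plasminogen, was above background on no t(1;14) array and was at least 1.32-fold lower, so that its place among the 5 rests on t(1;14) signals at background. C9, of the complement pore, and the complement proteins CFB and C4A were higher at the 2-fold level (1.94, 1.24 and 1.15, chosen afterwards). The 2 sequences of CD59, an inhibitor of that pore on cells also chosen afterwards, were opposed, the brighter at 1.56 and the other at -2.56, which was called lower. Of 9 genes of the BPI fold family, lipid-binding secreted proteins, 5 were called lower, and the family was chosen afterwards. BPIFA2 went from 9.34, 8.98 and 10.13 to 6.23, 6.19 and 6.38 (-3.21), BPIFC from 9.49, 10.02 and 9.55 to 6.74, 6.83 and 6.51 (a difference of -3), BPIFB4 by -2.86 and BPIFA3 by -2.29. BPIFB5 (-2.79) lost its call when any 1 of the t(1;14) arrays or control array 2 was left out, and it differed by -2.52 in the oligospermic arrays too. BPIFB1 had 0.31. AGT, angiotensinogen, and A2M, the broad protease inhibitor alpha-2-macroglobulin, both secreted and chosen afterwards, were higher. AGT went from 11.81, 11.63 and 11.30 to 14.44, 14.65 and 14.53 (2.96, all 5 sequences called) and A2M from 13.05, 12.67 and 12.49 to 15.08, 15.20 and 15.21 (2.42).

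Protein descriptions on the array gave a count over probes and not genes, in part of the same probes. Of 18231 probes with such a description 990 were called (5.43%), 268 higher (1.47%) and 722 lower (3.96%). Among 52 probes whose description names glutathione, 12 were called higher and none lower, and among 29 for tektins, outer dense fibre and A-kinase anchor proteins 9 were called lower and none higher. Of 20 dynein probes and 31 for cilia and flagella associated proteins none was called, with medians of -0.12 and -0.04. Large housekeeping families gave few calls. Of 267 ribosomal protein probes 2 were called lower, and of 55 genes of the cytosolic ribosome none was called in limma, with 21 higher and 2 lower at an unadjusted p under 0.05 and a median of 0.27. Of 29 proteasome genes none was called either, with 14 higher and 3 lower at an unadjusted p under 0.05 in limma. Solute carriers, membrane transporters of many substrates, were the widest family, with 2 of 150 genes called higher and 10 lower and a median of 0.08. Their called share of 8% was near the 6.49% of all genes.

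A small group of lower genes, chosen afterwards, is best known from striated muscle. MYOZ1, a protein of the Z-disc, went from 14.44, 14.41 and 14.17 to 12.21, 12.22 and 12.17, a difference of -2.14 in which all 4 sequences were called. CAPN3, the muscle calpain, went from 12.49, 12.45 and 12.22 to 9.96, 10.09 and 9.80, a difference of -2.44 with both sequences called. Both had bright signals in every control array and no overlap between groups. MYOT, another Z-disc protein, was at background on all t(1;14) arrays and at least 4.94-fold lower, with 5 of 10 sequences called, a range up to 0.42, and no call with the normexp offset. The array also holds probes named by the tissue of a cDNA clone, 2090 of them retained and 77 called (3.68%), 22 higher (1.05%) and 55 lower (2.63%). Of 28 such probes from longissimus muscle 7 were called lower and none higher, but 20 lay above 0, 10 were higher and 7 lower at an unadjusted p under 0.05 in limma, and their median was 0.39. Of 108 probes described as myosin or troponin 3 were called lower and none higher, 9 were higher and 8 lower at 2-fold, and the median was 0.09. ACTA2, of smooth muscle, had -0.21 (limma adjusted p = 0.554).

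Other higher genes, chosen afterwards, concern oxidants made at membranes. DUOX2, an oxidase that makes hydrogen peroxide, went from 4.15, 3.67 and 4.38 to 7.04, 7.33 and 7.52, and its maturation factor DUOXA2 from 6.27, 5.81 and 6.08 to 8.38, 8.43 and 8.17. The differences at these probes were 3.23 and 2.27, with 1 of 3 and 2 of 4 sequences called, and other sequences ranged down to 0.36 and -1.07. Both genes lost their call with the normexp offset. DUOX1, the related oxidase, had -0.92.

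Signalling and immune lists gave 1 or 2 called members each, or none. BMP5 was the one called gene of 31 in TGF-beta and BMP signalling (10.21, 8.98 and 8.60 against 4.91, 4.27 and 4.74), and that list's median was 0.48. WNT5A, a secreted Wnt ligand and the one called gene of 17, rose from background on all control arrays to 6.02, 6.29 and 6.26, at least 5.97-fold, and lost the call without t(1;14) array 3. Among 36 apoptosis genes FASLG, the ligand of the death receptor FAS, was at least 8.0-fold lower, and TNFRSF21, a death domain receptor, differed by -2.23 (10.59, 10.93 and 10.71 against 8.59, 8.52 and 8.45). No other gene of that list was called (5.56%, against 6.49% of all genes), and its median was 0.265. At 2-fold 4 of its genes were higher and 2 lower, and 12 were higher and 4 lower at an unadjusted p under 0.05 in limma. IL10, an anti-inflammatory cytokine, was above background on the 3 control arrays and on no t(1;14) array, at least 4.12-fold lower, with both sequences called. The dim probes of WNT5A, FASLG and IL10 fell short of 4-fold with the normexp offset. Among 42 interferon genes OAS1, a sensor enzyme for double-stranded RNA, was lower by -2.76 with 1 of 3 sequences called, and the list median was 0.36. Of 22 MHC genes none was called at 4-fold by limma, 4 were higher and 4 lower at an unadjusted p under 0.05, and 3 were higher and 1 lower at 2-fold. These were SLA-2 (1.47) and SLA-3 (1.46, with 1 of 8 sequences called higher and a range from 0.51 to 2.82), of class I, SLA-DRB1 (1.33), of class II, and CD1D (-1.46), a class I-like lipid presenter, all chosen afterwards. SLA-1 and SLA-8, also of class I, had 0.87 (limma adjusted p = 0.078) and 0.13 (limma adjusted p = 0.409), the latter chosen afterwards. Of 56 probes described as MHC 3 were called higher and none lower, with 13 higher and none lower at 2-fold.

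Markers of the other cells in the biopsy gave few calls. None of the 12 Sertoli, 10 peritubular, 9 endothelial, 10 macrophage, 7 lymphocyte and 2 mast cell genes tested was called at 4-fold in limma, while 4, 3, 4, 2, 0 and 0 of them were higher and 2, 4, 1, 2, 2 and 0 lower at an unadjusted p under 0.05. SOX9, the factor that sets Sertoli cell fate, had 9.75, 9.47 and 9.64 in the controls and 9.91, 9.91 and 9.68 in t(1;14), and AMH, a Sertoli hormone, had 9.11, 8.39 and 9.04 against 9.13, 8.40 and 9.12. The groups overlapped for AMH (0.03, SE 0.28, limma adjusted p = 0.928). WT1, another Sertoli factor, was lower by -1.41 and CITED1 higher by 1.61 at the 2-fold level, both chosen afterwards. ACTA2, smooth muscle actin, had -0.21 (limma adjusted p = 0.554) and CD163, of macrophages, 0.50 (limma adjusted p = 0.162). Of the 10 peritubular genes, MYOCD (-1.92), PLN (-1.10) and CNN1 (-1.08) were lower at 2-fold and CALD1 (1.19) higher, and of the 10 macrophage genes C1QC (-1.86) was lower and CD14 (1.30) higher, all chosen afterwards. PECAM1, of endothelium, went from 7.19, 7.60 and 8.01 to 8.94, 9.12 and 8.92, a 2-fold call at 1.39, while FLT1, a receptor for vascular endothelial growth factor chosen afterwards, was lower at 2-fold (-1.64). The endothelial median of 0.90 was above that of all genes, and the control arrays themselves spread from -0.41 to 0.47 on that list. The summed level of the Sertoli markers ran from 15.11 to 15.82 on the control arrays and from 15.88 to 15.98 on the t(1;14) arrays, and that of the lymphocyte markers from 11.44 to 11.83 and from 10.53 to 11.07 (log2). Such sums give most weight to the brightest probes. The Sertoli and lymphocyte list medians were 0.28 and 0.11, and 4 of the 7 lymphocyte genes lay above 0. Per array, the lymphocyte median ran from -0.37 to 0.49 in the controls and from -0.09 to 0.15 in t(1;14). CD3E, a defining T cell marker, and HBB, of red cells, were near background and overlapped between groups. Of 7 duct epithelium genes, KRT18 was at background on all control arrays and was at least 2.31-fold higher, a limit under the 4-fold of its call, and it lost the call without t(1;14) array 3 or with the normexp offset. The part of cell makeup in the other differences was not tested.

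**Figure D5:**
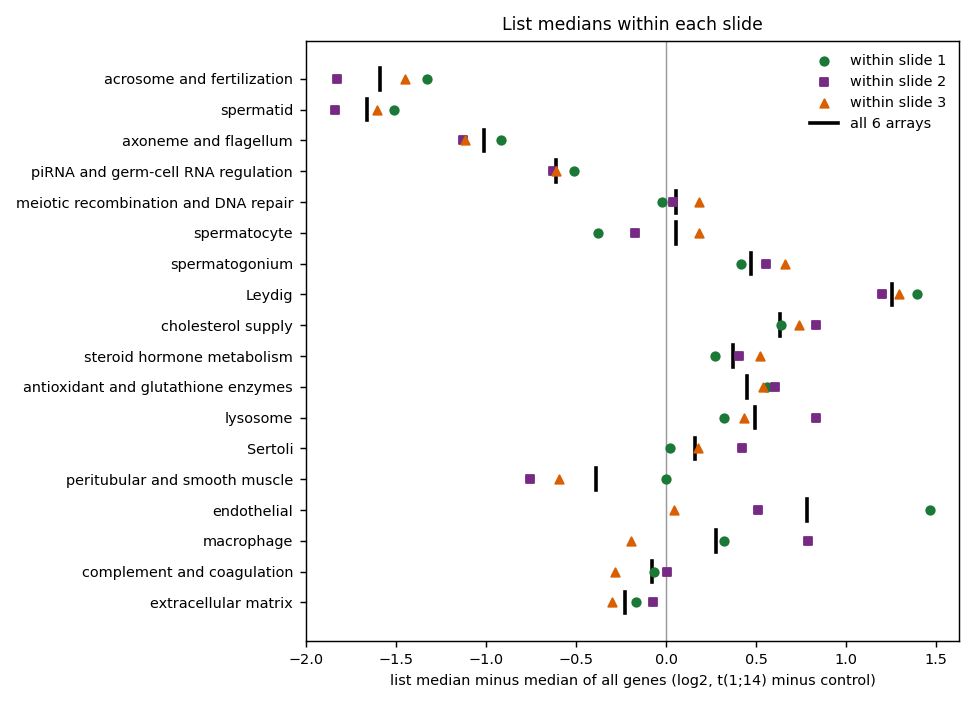
List medians minus the median of all genes, as log2 t(1;14) minus control, within each slide (1 t(1;14) and 1 control array) and over all 6 arrays (bars). The acrosome list lies between -1.83 and -1.33 and the Leydig list between 1.20 and 1.39 within the 3 slides, and the endothelial list runs from 0.04 to 1.46.

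Because every slide held an array of each group, differences could be read within slides. Of the 2247 called probes, all of which had groups without overlap and hence 1 direction in every slide, 1308 differed by at least 4-fold within each slide. Relative to the median of all genes, the list medians within slides 1, 2 and 3 were -1.51, -1.84 and -1.60 for spermatid genes, and 0.64, 0.83 and 0.74 for cholesterol supply. For lysosomal genes they were 0.32, 0.83 and 0.43, so that slide 2 gave the largest value. The spermatocyte list had -0.38, -0.17 and 0.18 and kept no direction across slides.

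The oligospermic arrays share the control arrays of this comparison, and their differences from control are therefore given only beside those of t(1;14), from a model of all 9 arrays. Against control 46 of 41105 probes were called in the oligospermic arrays (0.112%), 27 higher (0.0657%) and 19 lower (0.0462%). Against the oligospermic arrays 2683 were called in t(1;14) (6.53%), 755 higher (1.84%) and 1928 lower (4.69%). The list medians of the oligospermic arrays against control were -0.03 for the acrosome, 0.03 for spermatids, 0.01 for the axoneme, 0.02 for Leydig genes, 0.09 for cholesterol supply, -0.03 for antioxidant enzymes and -0.02 for lysosomes. For ODF1 the oligospermic arrays differed from control by 0.06, for DCST2 by -0.05, for CYP11A1 by -0.39 and for STAR by 0.41. LHCGR, GSTA2, CYP19A2 and CYP19A3 had 0.94, 1.00, 1.09 and 1.23 there, in the direction of t(1;14) but with smaller values. Set directly against the oligospermic arrays, t(1;14) differed by -2.58 for ODF1, by -3.59 for DCST2, by 3.31 for STAR, by 2.93 for CYP11A1 and by 3.52 for GPX3, and the highest limma adjusted p of these was 2.38e-05, for STAR.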

How the data were processed

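Testis RNA was measured on 9 single-colour Agilent arrays, of which the 3 t(1;14) and the 3 control arrays form the main comparison. The deposited intensity values were background-subtracted spot signals made by the authors with Agilent Feature Extraction, not normalized between arrays. The deposited series table held log2 values that the authors had normalized with limma, and it was used only as an alternative. Here the log2 of the processed signal was quantile normalized over the 6 arrays (over 9 where oligospermic arrays enter), control spots were left out, and probes well above background on at least 2 of 3 arrays of 1 group were fitted with limma 3.58.1 in R 4.3.3 (lmFit and eBayes, group means, Benjamini-Hochberg over all retained probes). Quantile normalization sets all arrays to 1 distribution, so differences are relative to it. Calls needed an adjusted p of at most 0.01 and a log2 difference of at least 2 (4-fold), or of at least 1 for 2-fold calls. A gene was read at its retained probe of highest mean signal. Genes are named as the array annotation names them, and some names are old. Copies of 1 sequence under several probe names counted once where sequences are counted.

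The members and lists were chosen with earlier results of these data known. Genes named by rule were the 15 largest rises and falls, up to 4 called members per list, family and direction (or the 2 brightest where fewer than 2 were called) and defining markers. Any others were chosen afterwards, and most of them are marked so. A fold against a group with no array above background is a lower limit, the bright group's mean against the dim group's mean of, per array, the higher of the lowest signal well above background and the probe's own signal. Some members counted in the lists are not reported here by name. Tests were checked on simulated data. Alternatives were normexp background, 75th percentile scaling, the series table, other filters and thresholds, all 9 arrays, slide and replicate blocks, and leaving out each array. The number of arrays limits the precision, and 3 against 3 arrays cannot go below p = 0.1 in an exact permutation test of a single value (two-sided), so the fit across all probes was used.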

Additional observations from a re-analysis of the deposited data

How the results depend on the processing

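Probes called in t(1;14) against control numbered 2247 (524 higher, 1723 lower). With normexp background and an offset of 50 they numbered 960 (234 higher, 726 lower), of which 943 were among the 2247, and 69 of the 172 named genes with a 4-fold call lost it. A 2-fold threshold gave 7681 (2960 higher, 4721 lower) and, against the oligospermic arrays, 9621 in place of 2683. The adjusted p alone gave 12642 (6322 higher, 6320 lower), and 1 probe per gene gave 412 (90 higher, 322 lower). Without a test, 855 probes were 4-fold higher within slide 1, and 3479 differed 4-fold within slide 2, 989 of them higher. Leaving out 1 array in turn gave 1920 to 2340 probes (402 to 573 higher, 1509 to 1792 lower), and 2215 to 2807 against the oligospermic arrays. Deviations of arrays on the same slide correlated at 0.35, 0.11 and 0.12, and the slide as a block gave 2210 calls, 2162 of them among the 2247. Replicate numbers did not pair the arrays, since same-numbered deviations correlated at -0.29, -0.20 and 0.14, and the replicate block gave 1997 calls (437 higher, 1560 lower), 1993 of them among the 2247.

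Relative to all genes, the median of the acrosome list stayed between -1.83 and -1.33 over the alternatives run, that of the Leydig list between 1.20 and 1.43 and that of the lysosome list between 0.31 and 0.83. Of 38 list medians, 24, 28 and 23 moved by more than the spread between replicates within slides 1, 2 and 3, some of them across 0, 14 with the median of all probes, 13 with the normexp offset and 11 with 75th percentile scaling, as did 46 of the medians recomputed with 1 array left out. The retinoid list median, -0.17 in the main setting, was 0.062 within slide 1 and 0.26 within slide 2, and that of cell junction genes, -0.08, was 0.053 with 75th percentile scaling. Read as the median of all their probes, KCNN3 had 0.69 and TES 0.12, against -2.23 and -2.16 at the brightest probe, and of the 172 called named genes a further 41 moved by more than the spread between replicates with the same sign. The cause of these changes was not tested. Signals near background limit what dim probes can show, and 300 of the 2247 probes were above background on no t(1;14) array and 129 on no control array.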
